A study of Mus musculus with 6 samples.

Results

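Alveolar macrophages live in the air spaces of the lung, where they take up spent surfactant lipid and inhaled particles. Under GM-CSF and TGF-beta they acquire PPARG-dependent lipid handling and a set of genes that other tissue macrophages express weakly or not at all, among them Siglecf, Car4, Krt79, Fabp1 and Cidec. The 31 genes described here are established markers of the mature cell, listed by symbol. All 31 had a row in the deposited table of 23282 gene rows. None was selected by its own values, but the list was drawn up with earlier results of these data known.

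RNA was measured in 3 Sdha-KO and 3 WT libraries. Cells were sorted by flow cytometry from mouse lung as positive for CD45, CD11c, F4/80 and SiglecF and negative for CD11b. Sdha-KO mice carried floxed Sdha alleles with LysM-Cre, a Cre recombinase expressed from the Lyz2 locus in myeloid cells, and WT mice are labelled only as wildtype, so whether they carried Cre or floxed alleles is not given in the sources used here. Sdha encodes the catalytic subunit of succinate dehydrogenase, which links the tricarboxylic acid cycle to the respiratory chain. Ages, and whether a library came from 1 mouse or a pool, are likewise not given, so the p-values below reflect library-to-library spread, which may be technical. Each replicate number is also a batch number in the labels, and the 3 batches each pair a Sdha-KO with a WT library.

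Total counts ranged from 5400160 to 8472907 per library. Values below are library-scaled counts (CPM), adjusted for library composition. They come from 3' end reads, so they do not scale with transcript length. Sdha was at 26.1, 21.01 and 22.8 CPM in Sdha-KO replicates 1 to 3, against 56.0, 65.5 and 72.2 CPM in WT replicates 1 to 3 (edgeR adjusted p = 0.194 in replicates 2 and 3, and 0.0327 in a fit that also holds the replicate number). With 6 libraries the edgeR adjusted p of Sdha was 0.99982, and 0.966 with the replicate number in the fit. Because 3' reads can fall outside the deleted exons, Sdha RNA checks the genotype labels only in part. The batch 1 libraries stood apart. Taking the 3447 genes that reached 100 counts in all of the other 4 libraries, 612 (17.8%) had no count in Sdha-KO replicate 1 and 136 (3.95%) had none in WT replicate 1. Among 24 markers of that abundance, 2 had no count in Sdha-KO replicate 1 (Siglecf and Adgre1) and 0 in WT replicate 1. Counts of markers are therefore given for all 6 libraries and for replicates 2 and 3 only. Fits of single markers are mostly given for replicates 2 and 3. In the main fit of 6 libraries the lowest edgeR adjusted p of any marker was 0.851 (Car4). Without a filter on low counts edgeR gave Car4 an adjusted p of 0.0398. In replicates 2 and 3 the mix of sexes differed with genotype. The X-inactivation transcript Xist had 498 and 822 counts in Sdha-KO against 4608 and 6055 in WT libraries, and the Y-linked Ddx3y had 354 and 432 against 0 and 143, so genotype and sex cannot be told apart there. In batch 1 the sexes were the other way round, with 2683 Xist and 0 Ddx3y counts in Sdha-KO and 0 Xist and 222 Ddx3y counts in WT. Both transcripts had counts in Sdha-KO replicates 2 and 3 and in WT replicate 3, so those libraries held RNA of both sexes. Whether they were pools of mice was not tested.

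The alveolar macrophage programme was not uniformly lower in Sdha-KO cells. Chil3, Marco, Lpl, Cd68, Olr1, Plet1, Krt19, F7 and Serpinb1a had log2 differences between -0.40 and 0.48 in replicates 2 and 3, and none of these passed a test there. They include Chil3 and Lpl, the most and second most abundant marker in every library. With its filter on low counts, edgeR's test without the replicate block did not call the markers named next either. Siglecf, Cd2, Fabp1, Cidec, Alox5, Fn1, Krt79 and Dmxl2 were between 2.37-fold (Dmxl2) and 5.37-fold (Fn1) lower in the same libraries. Flt1, Vstm2a, Mrc1, Ltc4s, Nceh1 and Lyz2 were also lower there and are described below, with the remaining markers. Car4 was 1.86-fold and Fabp4 3.41-fold higher. In bulk RNA, fewer cells of a type and less RNA per cell cannot be told apart. The difference between these groups of markers was not tested. The summed level of all 31 markers was 9834, 12155 and 10017 CPM in Sdha-KO replicates 1 to 3, against 11039, 11987 and 12701 CPM in WT replicates 1 to 3, so the sums overlapped between genotypes. Without Chil3, the most abundant marker in every library, the sums were 6327, 6771 and 5976 CPM in Sdha-KO and 6788, 7478 and 7276 CPM in WT libraries, and every Sdha-KO sum lay below every WT sum. The gap was narrow, from 6771 CPM in Sdha-KO replicate 2 to 6788 CPM in WT replicate 1. It rests on composition factors that ran from 0.778 (WT replicate 2) to 1.42 (Sdha-KO replicate 1). Sums scaled by totals alone were not compared.

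**Figure D1:**
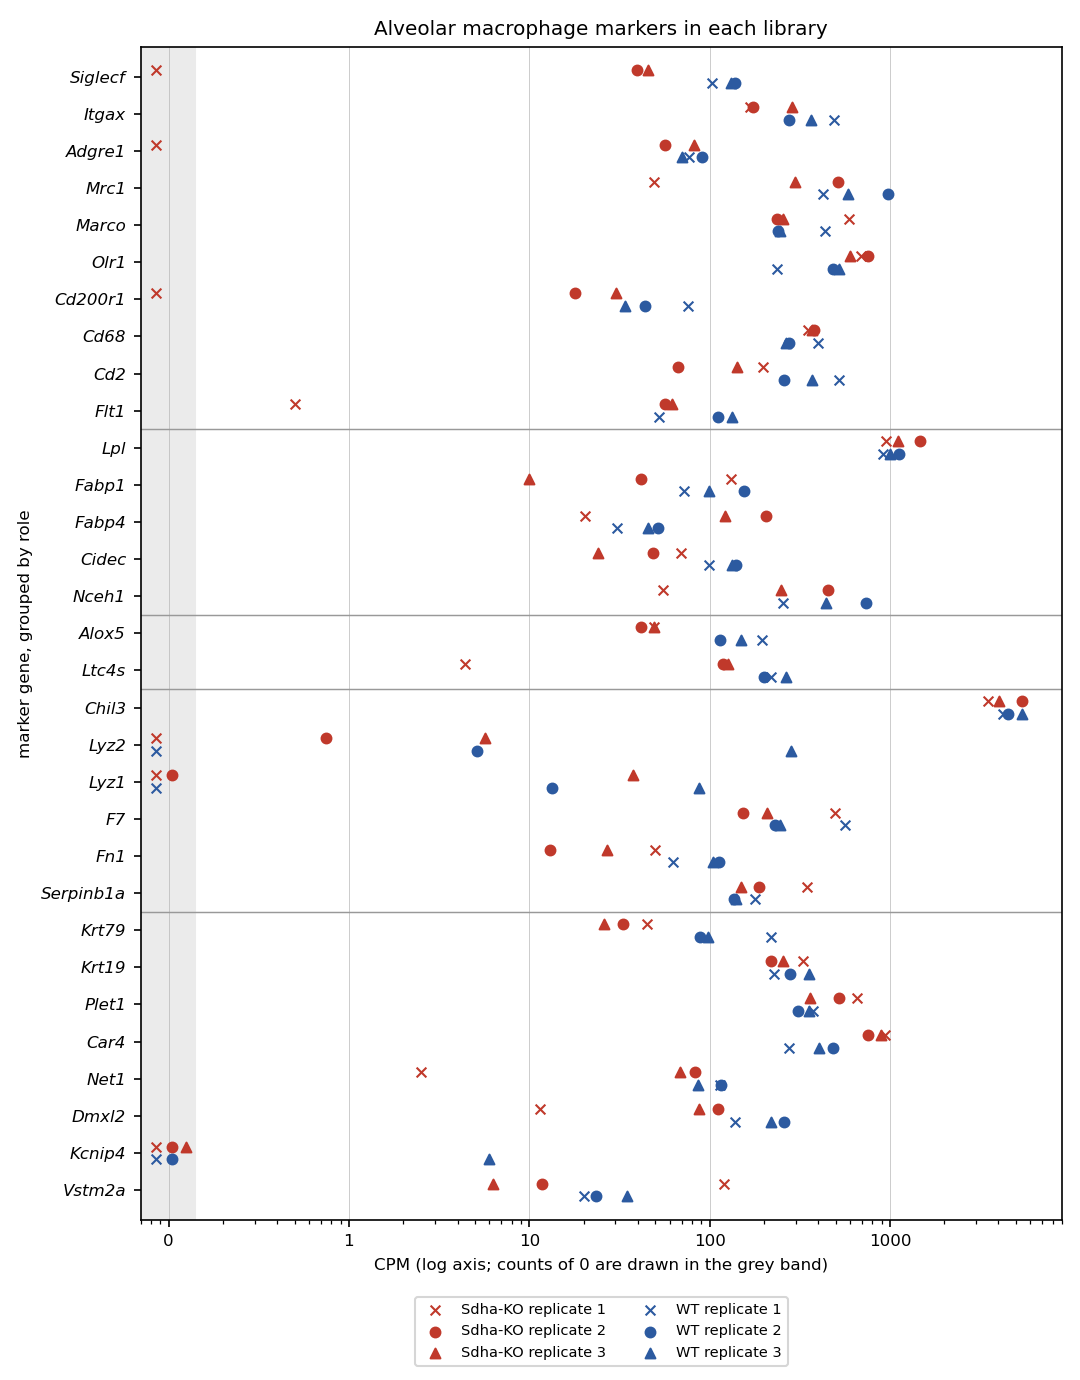
CPM of the 31 marker genes (log axis) in each Sdha-KO library (red, upper row of each gene) and WT library (blue, lower row), with 1 symbol per replicate, and lines between the role groups. Siglecf, Cd2, Cidec, Alox5, Fn1 and Krt79 show all 3 red symbols left of all 3 blue ones, Car4 shows the reverse, and the grey band holds counts of 0.

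The main test was edgeR's quasi-likelihood model with its filter on low counts and Benjamini-Hochberg adjustment over all tested genes. In it no marker reached an adjusted p under 0.05. With 6 libraries 30 markers were tested, and the lowest adjusted p was 0.851 (Car4). With replicates 2 and 3 only 30 were tested, and the lowest adjusted p was 0.0942 (Siglecf). The background was small, with 0.0502% of 9963 tested genes called with 6 libraries (0.01% lower and 0.0401% higher) and 0.251% of 10757 with replicates 2 and 3 (0.112% lower and 0.139% higher). At an unadjusted p under 0.05 with 6 libraries, 7 markers were lower and 1 was higher, against 1.28% and 1.36% of all tested genes. With replicates 2 and 3 these numbers were 13 and 2 markers, against 4.93% and 5.29%. When the replicate number, which is the batch, was added as a block to the fit of replicates 2 and 3, 14 of 30 markers passed, against 3.01% of all tested genes. Of these, 12 were lower, against 1.36% of all tested genes, and 2 were higher, against 1.65%. The 12 include Siglecf, whose protein was in the sort gate. They also include Lyz2, whose locus carries the Cre insertion and whose reads came mostly from WT replicate 3. The block fit of replicates 2 and 3 leaves 1 residual degree of freedom, and the same block with 6 libraries called 0 genes (296 at an unadjusted p under 0.05). At that unadjusted level 9 markers were lower and 1 higher with the block, against 1.43% and 1.55% of genes. In replicates 2 and 3 without the block, DESeq2 called 10 markers and limma-voom 10, against 302 and 223 of all 10757 tested genes. All of these markers were among the 14, but these fits share the same libraries.

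By size alone, a marker was placed as lower when every Sdha-KO library lay under every WT library and the means differed by at least 2-fold, as higher in the mirror case and as neither otherwise. In 30 of the 31 markers the mean of the higher genotype reached 10 CPM, and Kcnip4 was under it. In replicates 2 and 3, 10 of these 30 were lower and 1 (Fabp4) was higher, against 10.9% and 9.66% of the 7522 genes at the same minimum level. The other 19 were neither. With 6 libraries 10 were lower and 1 (Car4) higher, against 9.25% and 4.74% of 7360 genes. The 6-library list of lower markers held Cd200r1, Ltc4s and Net1 in place of Flt1, Fabp1 and Vstm2a. It shortened to 6 when libraries were scaled by totals alone, against 7.19% of genes. Regardless of fold, 10 markers lay below and 2 above WT without overlap with 6 libraries (background 11.1% and 6.75%), and 16 and 6 with replicates 2 and 3 (24.4% and 23.3%). Within all 3 batches 15 markers were lower, against 23.0% of those 7360 genes, and 5 were higher within all 3 (Olr1, Lpl, Serpinb1a, Plet1 and Car4), against 14.9%. The median log2 difference of the 30 tested markers was -0.71 in replicates 2 and 3 and -0.88 with 6 libraries, beside -0.017 and -0.13 over all tested genes. Scaled by totals alone, the markers' medians were -0.56 and -0.72, beside 0.099 and 0.052 over all tested genes.

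**Figure D2:**
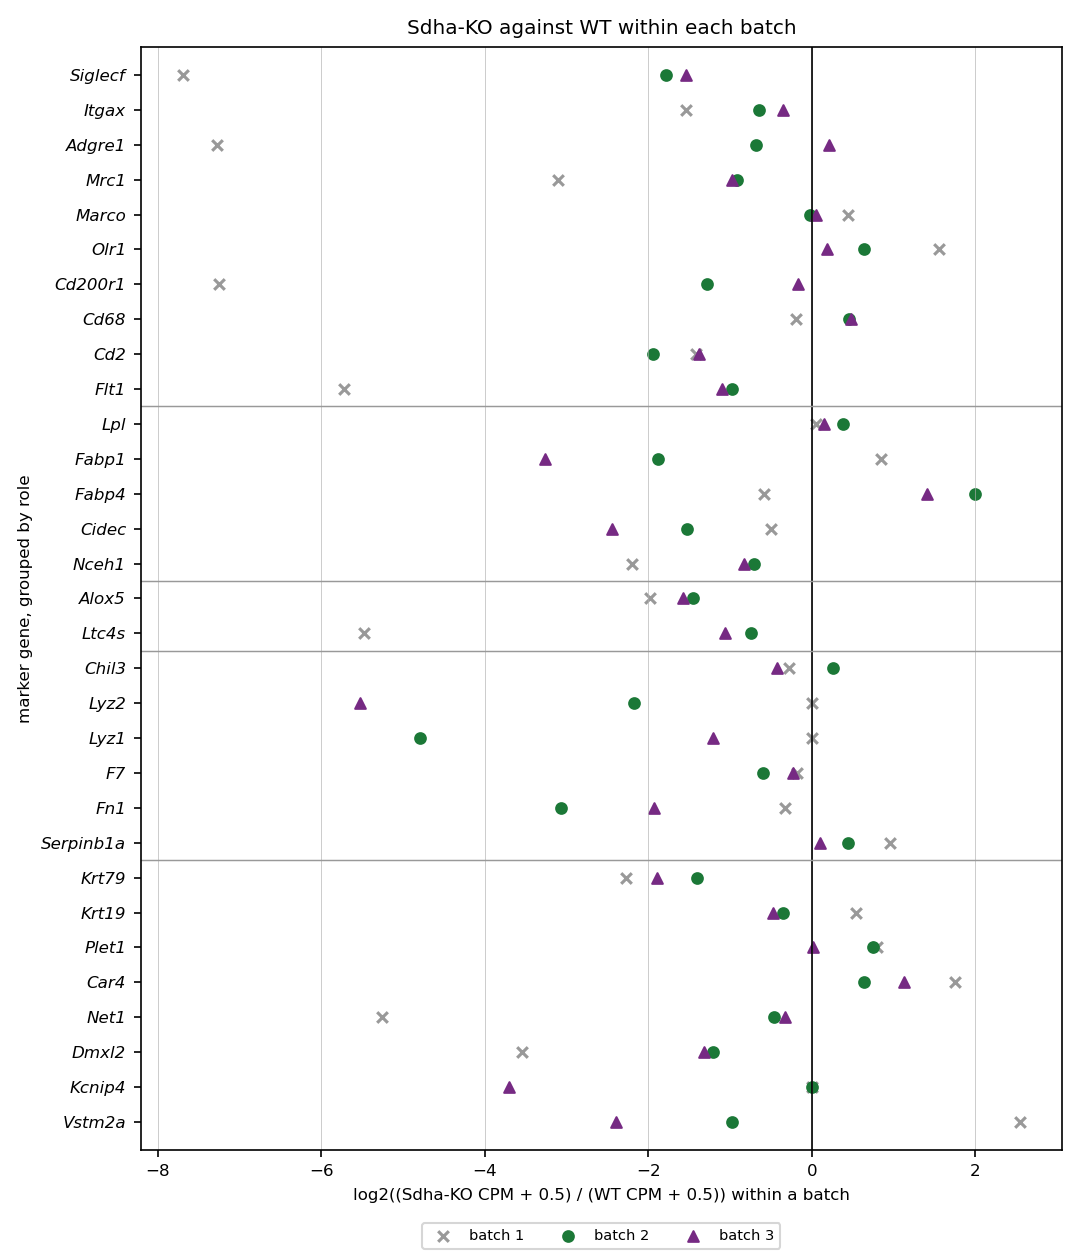
Log2 ratio of Sdha-KO over WT CPM within batch 1, 2 and 3 for each marker, with 0.5 CPM added to both values. Batches 2 and 3 lie close together for Siglecf, Mrc1, Alox5, Dmxl2 and Nceh1, while Fabp1, Fabp4, Krt19, Cd68 and Vstm2a lie on the other side of 0 in batch 1.

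Siglecf, the sialic acid-binding lectin that marks the mature cell and was part of the sort gate, was among the markers furthest apart between genotypes. It lies on chromosome 7 (43351341 to 43359531, plus strand, GENCODE M21 on mm10). It had 0, 39.6 and 45.3 CPM in Sdha-KO replicates 1 to 3, against 103, 138 and 132 CPM in WT replicates 1 to 3. The 3 libraries of each genotype did not overlap. Without batch 1 the fitted level was 3.15-fold lower (log2 difference -1.66, SE 0.29; edgeR adjusted p = 0.0942, and 0.0022 with the replicate block, with a range of 0.000491 to 0.178 over the alternatives tried). Cells sorted for SiglecF protein thus gave no Siglecf read in Sdha-KO replicate 1, where a count of 0 allows up to 0.25 CPM, for counting error only, at least 412-fold below WT replicate 1. Adgre1, which encodes F4/80 and was also in the gate, had 0, 56.7 and 82.0 CPM in Sdha-KO against 76.8, 91.2 and 70.5 CPM in WT libraries. Outside Sdha-KO replicate 1 the genotypes overlapped for Adgre1. Itgax, which encodes CD11c, had 168, 174 and 286 CPM in Sdha-KO against 488, 274 and 363 CPM in WT libraries. It was lower in each batch, but Sdha-KO replicate 3 lay above WT replicate 2 (edgeR adjusted p = 0.708 in replicates 2 and 3). Because cells were chosen by these 3 proteins, the RNA levels and p-values of their genes hold only for cells inside the gate. The gate genes that are not markers of the list behaved as follows. Ptprc, which encodes CD45, was at 233, 542 and 498 CPM in Sdha-KO and 456, 760.5 and 936 CPM in WT libraries (edgeR adjusted p = 0.336 in replicates 2 and 3, and 0.0393 with the block). Itgam, which encodes the excluded CD11b, was at 0, 35.3 and 22.5 CPM in Sdha-KO and 9.80, 7.32 and 1.40 CPM in WT libraries (edgeR adjusted p = 0.363 in replicates 2 and 3, and 0.0521 with the block).

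Promoter sequence is shown for Siglecf and Alox5, which were lower in every batch, and for Car4, which was higher in every batch. Each is the 250 bases before the RefSeq start site (GRCm38.p6, the same coordinates as mm10), 5' to 3' on the gene's strand, and capitals would mark AGGAAGT on either strand, a motif bound by the myeloid factor PU.1. These 3 windows hold none.
Siglecf, chr7:43351091-43351340, plus strand: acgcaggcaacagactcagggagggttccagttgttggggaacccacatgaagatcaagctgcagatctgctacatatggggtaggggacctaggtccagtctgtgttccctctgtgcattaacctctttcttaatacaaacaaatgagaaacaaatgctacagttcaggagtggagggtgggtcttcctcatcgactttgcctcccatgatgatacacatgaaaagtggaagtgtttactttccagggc
Alox5, chr6:116461179-116461428, minus strand: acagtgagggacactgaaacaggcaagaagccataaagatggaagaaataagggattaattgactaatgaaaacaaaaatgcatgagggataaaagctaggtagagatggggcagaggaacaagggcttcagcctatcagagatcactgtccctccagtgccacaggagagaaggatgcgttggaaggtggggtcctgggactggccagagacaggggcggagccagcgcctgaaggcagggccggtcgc
Car4, chr11:84957504-84957753, plus strand: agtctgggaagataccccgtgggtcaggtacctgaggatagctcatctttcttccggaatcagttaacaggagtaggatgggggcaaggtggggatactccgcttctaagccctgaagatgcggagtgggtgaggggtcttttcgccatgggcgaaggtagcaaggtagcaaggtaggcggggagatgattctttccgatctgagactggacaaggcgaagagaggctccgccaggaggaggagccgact
The table held windows for 23 of the 31 markers, 26 in all. AGGAAGT was in 7 of the 26 windows (26.9%), those of Chil3, Flt1, Ltc4s, Lyz1, Lyz2, Mrc1 and Nceh1, and in 7.69% of all 32851 windows of the same length. The nuclear receptor motif AGGTCA, searched on both strands, was in 6 (23.1%), against 14.0% of all windows. Of 3 further motifs, AP-1 (TGANTCA) was in 6 windows (23.1%), against 6.75% of all, the E-box CACGTG in 2 (7.69%), against 6.02%, and the PPAR/RXR direct repeat in 0, against 0.0335%. A match is a description of these letters and not a binding site.

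Among the other surface receptors, Cd2 was placed as lower by size in both sets of libraries, Cd200r1 with 6 libraries only and Flt1 in replicates 2 and 3 only. Mrc1 was in neither class, and Cd2 and Mrc1 passed with the block in replicates 2 and 3. Cd2, an adhesion receptor best known on T cells and carried by mouse alveolar macrophages, had 197, 66.8 and 141 CPM in Sdha-KO against 524, 258 and 368 CPM in WT libraries. The genotypes did not overlap, and Sdha-KO was 2.60-fold to 3.86-fold lower within each batch. Without batch 1 it was 2.98-fold lower (log2 difference -1.57, SE 0.39; edgeR adjusted p = 0.248, and 0.000223 with the block, range 3.78e-05 to 0.274). Mrc1, the mannose receptor, had 49.2, 516 and 299 CPM in Sdha-KO against 428, 974 and 587 CPM in WT libraries. Within batches 2 and 3 it was 1.89-fold and 1.96-fold lower, although Sdha-KO replicate 2 lay above WT replicate 1 (edgeR adjusted p = 0.436 in replicates 2 and 3, and 0.00345 with the block, which is the lowest of the range up to 1.00). Flt1, a receptor for vascular endothelial growth factors, had 0.501, 56.5 and 62.2 CPM in Sdha-KO against 52.4, 111 and 134 CPM in WT libraries. It was 2.05-fold lower in replicates 2 and 3 and did not pass with the block (edgeR adjusted p = 0.273 without it and 0.0617 with it, range 0.0363 to 1.00). Cd200r1, the receptor for the inhibitory ligand CD200, had 0, 17.9 and 30.1 CPM in Sdha-KO against 75.6, 43.9 and 33.7 CPM in WT libraries. Its replicates 3 differed little, at 30.1 CPM in Sdha-KO against 33.7 CPM in WT.

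Marco, a scavenger receptor for inhaled particles, had 593, 236 and 255 CPM in Sdha-KO against 436, 239 and 246 CPM in WT libraries. The genotypes overlapped for Marco, and the log2 difference was 0.028 with an SE of 0.23 in replicates 2 and 3. Cd68, an endosomal glycoprotein of macrophages, had 352, 379 and 369 CPM in Sdha-KO against 402, 275 and 264 CPM in WT libraries. It was higher in batches 2 and 3 and lower in batch 1. Olr1, the oxidised LDL receptor, had 692, 759 and 598 CPM in Sdha-KO against 236, 486 and 525 CPM in WT libraries. All 3 Sdha-KO libraries lay above all 3 WT libraries, with a log2 difference of 0.72 with 6 libraries and 0.44 (SE 0.22) in replicates 2 and 3 (edgeR adjusted p = 0.563). A p over the threshold does not show that the levels of these 3 receptors were alike.

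The 5 lipid genes split in both directions. Cidec, a lipid droplet fusion protein, had 69.8, 48.4 and 24.1 CPM in Sdha-KO against 99.1, 140.5 and 134 CPM in WT libraries. All Sdha-KO libraries lay below all WT libraries, and in replicates 2 and 3 the level was 3.75-fold lower (log2 difference -1.91, SE 0.39; edgeR adjusted p = 0.145, and 0.000811 with the block, range 4.12e-05 to 0.178). Fabp1, a fatty acid-binding protein best known from liver, had 131, 41.8 and 9.99 CPM in Sdha-KO against 72.3, 155 and 99.7 CPM in WT libraries. It was 4.89-fold lower in replicates 2 and 3 (log2 difference -2.29, SE 0.63; edgeR adjusted p = 0.273, and 0.000773 with the block, range 1.8e-06 to 0.321), and 1.81-fold higher in batch 1. Its relative Fabp4, the fatty acid-binding protein of adipocytes and macrophages, went the other way, with 20.4, 206 and 122 CPM in Sdha-KO against 30.8, 51.5 and 45.5 CPM in WT libraries. Fabp4 was 3.41-fold higher in replicates 2 and 3 (log2 difference 1.77, SE 0.34; edgeR adjusted p = 0.129, and 0.00086 with the block, range 6.99e-05 to 0.141), and in batch 1 Sdha-KO was the lower library. Nceh1, a cholesterol ester hydrolase, had 54.9, 454 and 249 CPM in Sdha-KO against 254, 741 and 444 CPM in WT libraries. It was lower in each batch while the genotypes overlapped across batches (edgeR adjusted p = 0.541 in replicates 2 and 3, and 0.0252 with the block, the lowest of a range up to 1.00). Lpl, lipoprotein lipase, the second most abundant marker in every library, had 954, 1471 and 1109 CPM in Sdha-KO against 921, 1129 and 999 CPM in WT libraries. The genotypes overlapped, with a log2 difference of 0.29 and an SE of 0.22 in replicates 2 and 3.

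Both genes of leukotriene synthesis were lower in all 3 batches. Alox5 encodes 5-lipoxygenase, which starts the pathway, and Ltc4s encodes the synthase that joins glutathione to leukotriene A4. Alox5 lies on chromosome 6 (116410077 to 116461178, minus strand). It had 49.0, 41.5 and 49.5 CPM in Sdha-KO against 195, 114 and 148 CPM in WT libraries. The Sdha-KO libraries differed little among themselves, and the level was 2.86-fold lower in replicates 2 and 3 (log2 difference -1.52, SE 0.31; edgeR adjusted p = 0.145, and 0.0047 with the block, range 0.0025 to 0.487). Ltc4s had 4.42, 119 and 127 CPM in Sdha-KO against 219, 199 and 266 CPM in WT libraries. The genotypes did not overlap, and in replicates 2 and 3 the level was 1.88-fold lower (edgeR adjusted p = 0.288, and 0.0411 with the block, the lowest of a range up to 1.00). An exon of Ltc4s overlaps Gm26542 on the other strand, so its count is uncertain.

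**Figure D3:**
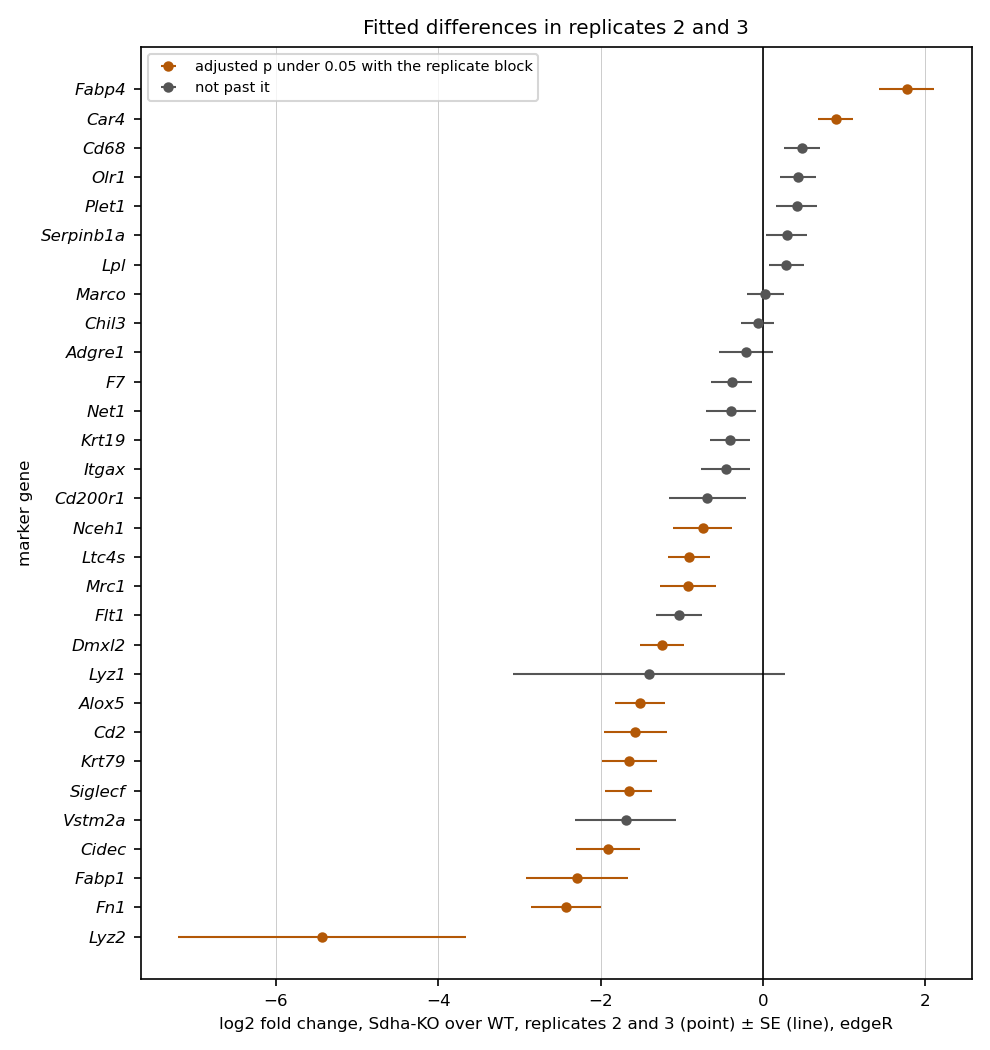
Log2 fold change of Sdha-KO over WT in replicates 2 and 3 (points) with its SE (lines) for the 30 tested markers, sorted, with markers past an adjusted p of 0.05 under the replicate block in orange. None of the points passed in this edgeR fit, which has no block and keeps the filter on low counts. They run from 1.77 for Fabp4 to -5.43 for Lyz2.

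Chil3, a chitinase-like protein secreted by mouse alveolar macrophages, was the most abundant marker and ranked between the 5th and the 9th row of the table in each library. It had 3507, 5385 and 4041 CPM in Sdha-KO against 4252, 4509 and 5424 CPM in WT libraries. The genotypes overlapped, and the log2 difference was -0.064 with an SE of 0.21 in replicates 2 and 3. Scaling by totals alone turned its sign, to 0.049. Fn1, which encodes fibronectin, had 49.985, 13.02 and 27.1 CPM in Sdha-KO against 63.0, 113 and 105 CPM in WT libraries. No Sdha-KO library reached a WT library, and in replicates 2 and 3 the level was 5.37-fold lower (log2 difference -2.42, SE 0.43; edgeR adjusted p = 0.0967, and 0.000543 with the block, range 1.18e-06 to 0.0988). An exon of Fn1 overlaps Apol7d on the other strand. F7, coagulation factor VII, had 497, 153 and 208 CPM in Sdha-KO against 561, 231 and 244 CPM in WT libraries. Both batch 1 libraries were the highest of their genotype for F7, and the difference within a batch was at most 1.51-fold. Serpinb1a, an intracellular inhibitor of neutrophil serine proteases, had 348, 187 and 149 CPM in Sdha-KO against 179.6, 137 and 139.5 CPM in WT libraries, and the genotypes overlapped.

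The lysozyme genes were sparse and uneven for a marker usually abundant in macrophages. Lyz2, on chromosome 10 (117277331 to 117282321, minus strand), whose locus carries the Cre insertion in Sdha-KO mice, had 0, 4 and 38 counts in Sdha-KO replicates 1 to 3 against 0, 23 and 2229 counts in WT replicates 1 to 3. WT replicate 3 thus held most of the Lyz2 reads of the study, and the difference in replicates 2 and 3 (log2 difference -5.43, SE 1.77) passed with the block and not without it (edgeR adjusted p = 0.394 without it and 0.00126 with it, range 2.36e-23 to 1.00). The part of the Cre insertion in the Lyz2 difference was not tested. Lyz1, the neighbour of Lyz2 (117287797 to 117292868, minus strand), had 0, 0 and 252 counts in Sdha-KO against 0, 60 and 685 counts in WT libraries. Lyz1 was lower in both batches that had counts and did not pass with or without the block (edgeR adjusted p = 0.896 and 0.668). The 2 transcripts are 92.0% identical over their length and 93.8% identical over their last 300 bases in GENCODE M21, the part that 3' reads come from, so reads may be split between them. Their upstream windows, 250 bases before the RefSeq start sites, are 78.8% identical and both hold the PU.1 motif, in capitals, on the opposite strand at the same distance from the start.
Lyz2, chr10:117282273-117282522, minus strand: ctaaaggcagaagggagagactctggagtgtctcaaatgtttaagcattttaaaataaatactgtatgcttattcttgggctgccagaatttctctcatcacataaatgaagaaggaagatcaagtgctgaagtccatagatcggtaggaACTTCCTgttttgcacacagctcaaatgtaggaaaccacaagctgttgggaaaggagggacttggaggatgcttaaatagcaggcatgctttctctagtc
Lyz1, chr10:117292869-117293118, minus strand: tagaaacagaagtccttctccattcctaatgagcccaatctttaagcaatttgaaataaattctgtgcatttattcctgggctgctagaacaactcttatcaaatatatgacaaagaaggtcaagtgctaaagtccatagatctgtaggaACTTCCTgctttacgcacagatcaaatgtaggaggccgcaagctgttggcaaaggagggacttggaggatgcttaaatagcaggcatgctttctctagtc

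Of the remaining 8 markers, Krt79 and Dmxl2 were placed as lower by size in both sets of libraries, Net1 with 6 libraries only and Vstm2a in replicates 2 and 3 only. Car4 was placed as higher with 6 libraries and in neither class in replicates 2 and 3. Krt79, Dmxl2 and Car4 passed with the block in replicates 2 and 3. Krt79, a keratin whose expression among macrophages marks the alveolar type, had 45.0, 33.1 and 26.1 CPM in Sdha-KO against 220.0, 88.5 and 98.0 CPM in WT libraries. The genotypes did not overlap, and in replicates 2 and 3 the level was 3.13-fold lower (log2 difference -1.65, SE 0.34; edgeR adjusted p = 0.147, and 0.011 with the block, range 0.00445 to 0.404). The other keratin, Krt19, had 329.6, 218 and 256 CPM in Sdha-KO against 226, 278 and 355 CPM in WT libraries. The genotypes overlapped for Krt19, which was lower in batches 2 and 3 and higher in batch 1. Dmxl2, a regulator of the vacuolar proton pump, had 11.4, 112 and 87.5 CPM in Sdha-KO against 139, 257 and 218 CPM in WT libraries. Sdha-KO was lower throughout, by 2.37-fold in replicates 2 and 3 (log2 difference -1.25, SE 0.27; edgeR adjusted p = 0.169, and 0.00326 with the block, range 0.003 to 0.479).

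Car4, a membrane-bound carbonic anhydrase on chromosome 11 (84957786 to 84966044, plus strand), had 935, 757 and 888 CPM in Sdha-KO against 277, 485 and 404 CPM in WT libraries. Every Sdha-KO library lay above every WT library. With 6 libraries the adjusted p of Car4 over the alternatives ran from 0.00397 (limma-voom) to 0.99999 (edgeR without WT replicate 3). The level was 2.21-fold higher with 6 libraries (log2 difference 1.15, SE 0.31; edgeR adjusted p = 0.851) and 1.86-fold higher in replicates 2 and 3 (log2 difference 0.90, SE 0.22; adjusted p = 0.245, and 0.00659 with the block, range 0.00187 to 0.636). Plet1, a surface protein of stem and progenitor epithelium also found on alveolar macrophages, had 653, 519 and 358 CPM in Sdha-KO against 375, 309 and 354 CPM in WT libraries. Sdha-KO replicate 3 and WT replicate 3 were nearly level, and an exon of Plet1 overlaps Plet1os on the other strand. Net1, a RhoA exchange factor, had 2.503, 83.5 and 68.7 CPM in Sdha-KO against 114, 116 and 86.5 CPM in WT libraries. The genotypes did not overlap with or without batch 1, but the difference reached 2-fold only with it, and replicates 2 and 3 gave a log2 difference of -0.40 with an SE of 0.31. Vstm2a, which encodes a secreted immunoglobulin-domain protein, had 120, 11.7 and 6.26 CPM in Sdha-KO against 20.1, 23.5 and 34.9 CPM in WT libraries. Sdha-KO replicate 1 was thus the highest library for Vstm2a and Sdha-KO replicates 2 and 3 the lowest, and the log2 difference was 0.81 with 6 libraries and -1.69 without batch 1. Kcnip4, a potassium channel-interacting protein, had 47 counts in WT replicate 3 and none elsewhere. It was under the count filter and so not tested, and with looser filters or fewer libraries it did not pass (lowest edgeR adjusted p = 0.251).

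By role, the 14 markers past the threshold with the block in replicates 2 and 3 were 4 of 5 tested lipid genes, 2 of 2 leukotriene genes, 3 of 10 surface receptors, 2 of 6 secreted or protease inhibitor genes and 3 of 7 of the rest, beside 3.01% of all tested genes. Without the block, edgeR with its filter on low counts called 0 markers, and with the block on 6 libraries it called 0 genes. The 2 higher ones were Fabp4 and Car4. The 3 receptors include Siglecf, whose protein was in the sort gate, and the 2 secreted or protease inhibitor genes include Lyz2.

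A second list of 24 genes that alveolar macrophages express, with their growth factor receptors and transcription factors, was tested in the same fits. With 6 libraries 1 of 24 passed (Ear1, lower; edgeR adjusted p = 0.0261, and 0.374 with the block) and with replicates 2 and 3 only 2 passed (Ear1 and Ear2, both lower; edgeR adjusted p = 0.0206 and 0.0155), beside 0.0502% and 0.251% of all tested genes. These eosinophil-associated ribonuclease genes were at 145, 139 and 112 CPM (Ear1) in Sdha-KO against 585, 575 and 739 CPM in WT libraries, and at 306, 173 and 168 CPM (Ear2) in Sdha-KO against 634, 831 and 882 CPM in WT libraries. Reads of their close paralogs cannot always be told apart, so these counts are uncertain. With the block in replicates 2 and 3, where 3.01% of all tested genes passed, 3 were higher (Bhlhe41, Ccl6 and Slc7a2) and 5 were lower (Tgfbr1, Ear1, Ear2, Mertk and Il18). In batch 1 Mertk went the other way, at 67.7 CPM in Sdha-KO against 14.0 CPM in WT. So did Bhlhe41, by little, at 154.5 CPM in Sdha-KO against 161.6 CPM in WT. The list's median log2 difference was -0.30 in replicates 2 and 3 and its summed level was 17013, 13932 and 12919 CPM in Sdha-KO against 14640, 11130 and 11451 CPM in WT libraries. The chemokine gene Ccl6 alone was at 11441, 7748 and 8027 CPM in Sdha-KO against 6941, 3523 and 3651 CPM in WT libraries. Without it the other 23 genes summed to 5572, 6184 and 4892 CPM in Sdha-KO against 7698.5, 7607 and 7799.9 CPM in WT libraries, so the direction of the sum turned. These sums rest on the composition factors too.

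Marker RNA of other lung cells differed between libraries, in directions that were not the same in every batch. No gene of these lists passed edgeR's test without the block. The 12 conventional dendritic cell markers summed to 53.6, 134 and 499 CPM in Sdha-KO against 38.5, 19.1 and 67.1 CPM in WT libraries. The sum was higher in Sdha-KO within each batch, but without Irf4 it was 13.9, 134 and 462 CPM in Sdha-KO against 28.3, 18.9 and 60.9 CPM in WT libraries, lower in Sdha-KO in batch 1. Of the 12, 4, 9 and 12 had a count in Sdha-KO against 4, 7 and 11 in WT replicates 1 to 3. Of the 10 dendritic markers tested in replicates 2 and 3, 0 had a negative log2 difference (median 3.36), beside 50.7% of all tested genes. With the block 2 were negative, beside 55.4% of all tested genes. The 18 interstitial macrophage and monocyte markers summed to 239, 518 and 613 CPM in Sdha-KO against 532, 296 and 425 CPM in WT libraries, with Folr2 at 0 throughout. Of the 14 tested in replicates 2 and 3, 12 had positive log2 differences, and the 2 negative ones were Csf1r and Ace. Csf1r, the largest part of the sum in WT replicate 1, was lower in Sdha-KO in each batch. It was at 125, 83.5 and 130 CPM in Sdha-KO against 379, 113 and 214 CPM in WT libraries. Lung epithelial markers summed to 198, 240 and 850 CPM in Sdha-KO against 310, 294 and 478 CPM in WT libraries, and neutrophil markers to 79.9, 189 and 169.9 CPM against 92.3, 89.0 and 62.6 CPM. Among the 7 neutrophil markers tested in replicates 2 and 3, 1 had a negative log2 difference, and 3 had with the block. Csf3r had 0 counts in Sdha-KO replicates 2 and 3, against 25 and 35 in WT replicates 2 and 3. Lymphocyte markers reached at most 38.2 CPM in any library, and the eosinophil granule genes Prg2 and Epx were at 0 throughout. Erythrocyte markers summed to 87.0, 293 and 388 CPM in Sdha-KO against 161, 229 and 249 CPM in WT libraries. With the block in replicates 2 and 3, where 3.01% of all tested genes passed, the dendritic Ccr7, Fscn1 and Ccl22, the macrophage C1qb and the neutrophil Cxcr2 were called higher. None of the 5 passed without the block (edgeR adjusted p between 0.126 and 0.587), and no gene passed with the block on 6 libraries. The part of these cells in the marker differences was not tested.

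**Figure D4:**
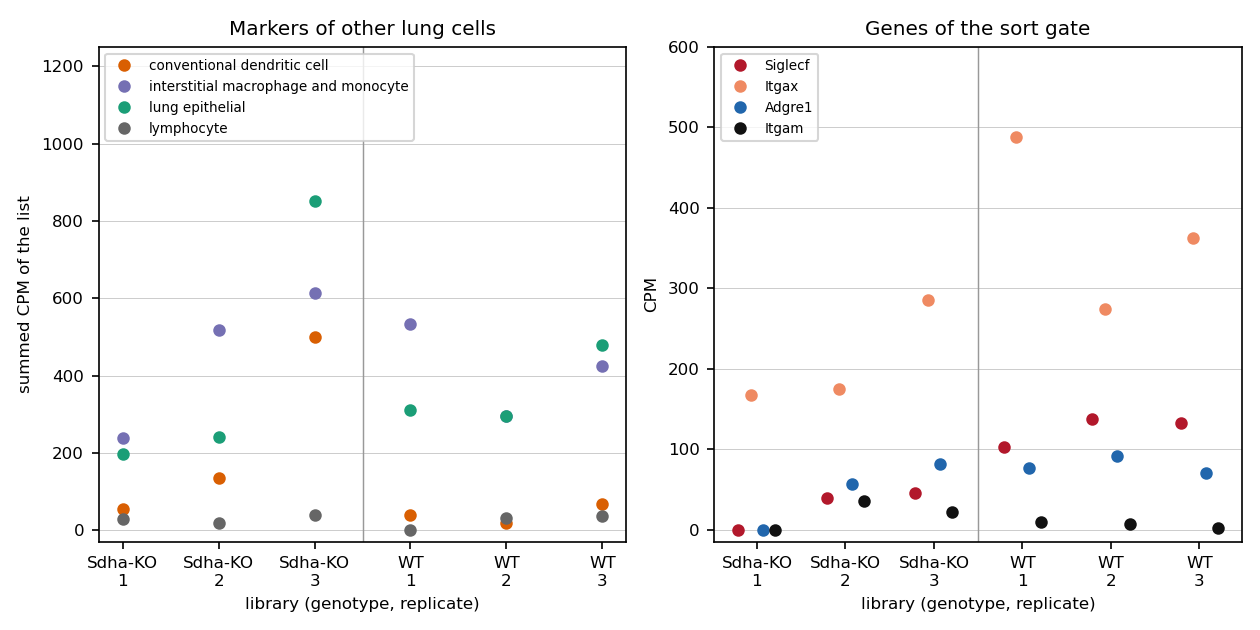
Left, summed CPM of marker lists of other lung cells in each library. Right, CPM of 4 genes of the sort gate, with small horizontal offsets. Dendritic cell markers reach 499 CPM in Sdha-KO replicate 3, and Siglecf, Adgre1 and Itgam are all at 0 in Sdha-KO replicate 1.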

How the data were processed

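Alveolar macrophage RNA of 3 Sdha-KO and 3 WT libraries was read from a deposited table of raw read counts per gene symbol. Per the labels' protocols, total RNA went into a QuantSeq 3' mRNA library kit. Per the submitters' processing notes, the authors used Bowtie2 and bedtools on mm10. Versions, annotation, strand use and multiple matches have no statement in the labels, and the deposited counts show no normalization. Of 23282 rows, 7901 were 0 in all libraries and 44 repeated a symbol and were kept apart. No molecular identifiers are mentioned, so a limit from a count of 0 (3 counts, 0.25 to 0.666 CPM) covers counting error only. Library pairs differed by at least 36.5 chi-square per degree of freedom, so none was a copy.

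Genotype was tested over all genes with edgeR 4.0.16 in R 4.3.3 (robust quasi-likelihood test of genotype, TMM scaling, filterByExpr at 10 counts), with Benjamini-Hochberg adjustment and a threshold of 0.05, on 6 libraries and on replicates 2 and 3. SEs are the log2 difference divided by the square root of F. The procedure was run on simulated data with less spread between libraries than here. In these data edgeR's common coefficient of variation was 1.40 with 6 libraries and 0.677 with replicates 2 and 3. The simulation held no batches and did not cover the block fit, so it does not show how the tests perform here. Same-numbered libraries share a batch per the labels, so the numbers pair them; their deviations from group means correlated at 0.147, 0.135 and 0.103, against -0.149 to 0.0874 for other pairs. Alternatives were RLE factors, library totals, other filters, DESeq2 1.42.0, limma-voom (limma 3.58.1), the replicate block, leaving out libraries or the rows Rn45s, Rn4.5s and Lars2, and for size classes a fold of 1.5, a minimum of 5 CPM and a test within pairs. CPM uses the 6-library factors. The members and lists were chosen with earlier results of these data known. By rule, all 31 members, Sdha and the sort gate genes were named, and further alveolar macrophage genes past a test. Xist, Ddx3y, Irf4 and the named markers of other cells were chosen after their values were seen. Coordinates and overlaps come from GENCODE M21 and promoters from RefSeq GRCm38.p6.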

Additional observations from a re-analysis of the deposited data

How the results depend on the processing

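With 6 libraries, 5 genes and 0 markers passed. The gene count was 9 with library totals, 48 without a filter, 0 where 1 genotype had to reach 10 counts in every library (255 at an unadjusted p under 0.05), 21 with DESeq2, 79 with limma-voom, 0 with the replicate block, and 0 to 13 on leaving out each library. The marker count was 1 without a filter (Car4), 5 with limma-voom (Car4, Cd2, Dmxl2, Ltc4s and Net1), and 0 on leaving out each library. With replicates 2 and 3, 27 genes and 0 markers passed. The gene count was 48 with library totals, 359 without a filter, 44 with 10 counts in every library of a group, 302 with DESeq2, 223 with limma-voom, 324 with the replicate block, and 103 to 1812 on leaving out each library, where the lone library of a genotype is assumed to vary like the others. The marker count was 11 without a filter, 10 with DESeq2, 10 with limma-voom, 14 with the replicate block and 4 to 11 on leaving out each library. Other scalings and filters left it at 0.

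By size with 6 libraries, 10 markers were lower and 1 higher. The lower count was 6 with library totals and 10 to 12 on leaving out each library. The higher count was 2 with a fold of 1.5, 2 with library totals, 2 without Sdha-KO replicate 1, and 0 to 2 on leaving out each library. In replicates 2 and 3 the higher count was 2 with a fold of 1.5 and 2 with library totals, and the lower count stayed between 9 and 13. With 2-fold required within each pair, which is the replicate block for this measure, 11 were lower and 1 higher. Log2 differences of Adgre1, Chil3, F7, Krt19, Lyz1, Marco and Vstm2a changed sign under some settings, and those of the other tested markers did not. With library totals, 6-library values were 0.11 for Chil3, 0.11 for F7 and 0.23 for Krt19, and 0.049 for Chil3 in replicates 2 and 3. With the replicate block and 6 libraries, Vstm2a was at -0.46. On leaving out each library, 6-library values ran from -0.94 to 0.26 for F7, from -0.27 to 0.085 for Krt19, from -10.99 to 0.91 for Lyz1, from -0.33 to 0.57 for Marco and from -1.54 to 1.33 for Vstm2a, and values in replicates 2 and 3 from -0.53 to 0.019 for Adgre1, from -0.30 to 0.095 for Chil3, from -11.23 to 0.49 for Lyz1 and from -0.064 to 0.070 for Marco. The cause was not tested. Sdha-KO replicate 1 detected 5438 genes against 7893 to 13050 in the other libraries, which limits what its zeros show.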
